A study of Mus musculus with 3 samples.

Results

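The mesenchymal cells described here are barcodes of 1 Drop-seq library, made from FACS-sorted cells of the injured adult mouse sciatic nerve. They were chosen from measured values. A barcode with at least 200 genes was a member when the matrix genes Col1a1, Col1a2, Col3a1 and Dcn made up at least 2% of its unique molecular identifiers (UMIs, each standing for 1 captured transcript), when C1qa, C1qb and C1qc together had at most 2 UMIs, and when the endothelial genes Pecam1, Cdh5 and Kdr together had at most 1. Of 2000 barcodes in the library, 1914 had at least 200 genes, and 735 of these were members (38.4%, 95% exact interval 36.2% to 40.6%). The whole series holds 7180 deposited cells.

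The series compares mesenchymal and other cells of uninjured nerve and of nerve after injury, in 3 libraries with 1 library per group. In the FACS library, the distal nerve segment was taken from adult CD1 and C57BL/6 mice 9 days after the nerve was resected, digested with collagenase and trypsin, and sorted; the sources used here give neither the sort gate, nor the number of animals, nor the strain of each cell. In the injured beads library, the same segment at the same time came from adult wildtype CD1 mice and was passed through myelin removal beads in place of a sort. The uninjured beads library was made from intact sciatic nerve of adult wildtype CD1 mice, and its table holds only the cells that the authors took to be mesenchymal. No group has a second library, so no test between groups was possible. Every interval given below is a 95% exact interval that covers counting error only, and neither animals nor libraries enter it.

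A peripheral nerve holds several kinds of connective tissue cell. Epineurial fibroblasts lie in its outer sheath, perineurial cells form the barrier around each fascicle, and endoneurial fibroblasts lie among the axons and Schwann cells. All are commonly recognised by collagens and, outside the perineurium, by Pdgfra, the alpha receptor for platelet-derived growth factor. After injury, mesenchymal cells of the distal stump proliferate, lay down matrix and secrete growth factors for axons and Schwann cells while macrophages clear myelin.

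The label was checked against its 5 markers. Levels are given as counts per 1000000 UMIs (CPM) of a gene in the summed counts of a set of cells. Col1a1 stood at 8632 CPM in the members and was seen in 97.0% of them, Col1a2 at 14169 CPM (99.5%), Col3a1 at 16162 CPM (99.6%) and Dcn, a collagen-binding proteoglycan, at 11776 CPM (94.7%). These 4 genes chose the cells. Pdgfra did not, and it stood at 220 CPM (203 to 238) with a UMI in 287 members (39.0%). Over all other kept barcodes of the library Pdgfra was at 81.3 CPM with a UMI in 10.6%, and over the 564 barcodes with more than 2 C1q UMIs and under 2% matrix genes it was at 12.2 CPM. The members therefore carried a mesenchymal marker that the rule had not used. The median matrix share of a member was 4.19%, with a highest value of 21.99%.

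Around the matrix limit, Dlk1 and Pi16 had a higher CPM just inside it, and Tnc and Wif1 just outside, on few cells. The 71 members with 2% to 2.5% matrix genes had 137 CPM of Pdgfra, 230 CPM of Dlk1, 368 CPM of Tnc, 59.4 CPM of Wif1 and 724 CPM of Pi16. The 38 barcodes just outside, with 1.5% to 2% matrix genes and within the other limits, had 161 CPM of Pdgfra, 64.2 CPM of Dlk1, 618 CPM of Tnc, 153 CPM of Wif1 and 401 CPM of Pi16. Outside, Dlk1 and Wif1 were each seen in 5 barcodes, Tnc in 9 and Pi16 in 10. Inside, Dlk1 was seen in 16 members, Wif1 in 10, Tnc in 19 and Pi16 in 29. The median depth was 2782 UMIs inside and 1135.5 outside.

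The members held 2907051 UMIs, with a median of 2976 UMIs and 1474 genes per cell, and 484 of them had at least 1000 UMIs. The median of the 1179 other kept barcodes was 2367 UMIs. By the same rule, 1442 barcodes of the injured beads library and 837 of the uninjured table were chosen, with medians of 2355.5 and 2124 UMIs. In the injured beads library 1190 barcodes were both chosen and in the authors' own mesenchymal table, which is 82.5% of those chosen and 92.3% of the authors' 1289. The FACS library shared 1 barcode with the injured beads library and 0 with the uninjured table, and the shared one had too few genes to be kept.

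RNA of other cell types was present in the members, with the highest sum for macrophage markers. A list of 10 macrophage markers summed to 1014 CPM in the members, with a UMI in 552 of 735, against 27858 CPM in the other kept barcodes, 251 CPM in the matching cells of the injured beads library and 19.4 CPM in those of the uninjured table. At least 5 UMIs of these markers were seen in 278 members. Lyz2 (lysozyme) made up 662 CPM of the members' sum. The 6 pan-leukocyte genes summed to 54.4 CPM, the 8 endothelial genes to 60.9 CPM, the 10 Schwann cell genes to 202 CPM and the 8 pericyte or smooth muscle genes to 137 CPM. All 7 T and NK cell genes were at 0, which allows a summed level of up to 1.27 CPM. Of the B cell genes, Cd79a and Cd79b were at 0 and Ebf1, which fibroblasts also express, gave all 192 CPM, while Ms4a1 and Igkc were not analysed here. The 6 neutrophil genes summed to 7.57 CPM, with a UMI in 21 members, and Retnlg and Cxcr2 among them were at 0. The 6 mast cell genes summed to 125 CPM. Whether the macrophage RNA lay free in the droplets or in doublets was not tested. Its part in the results below was not tested either.

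**Figure D1:**
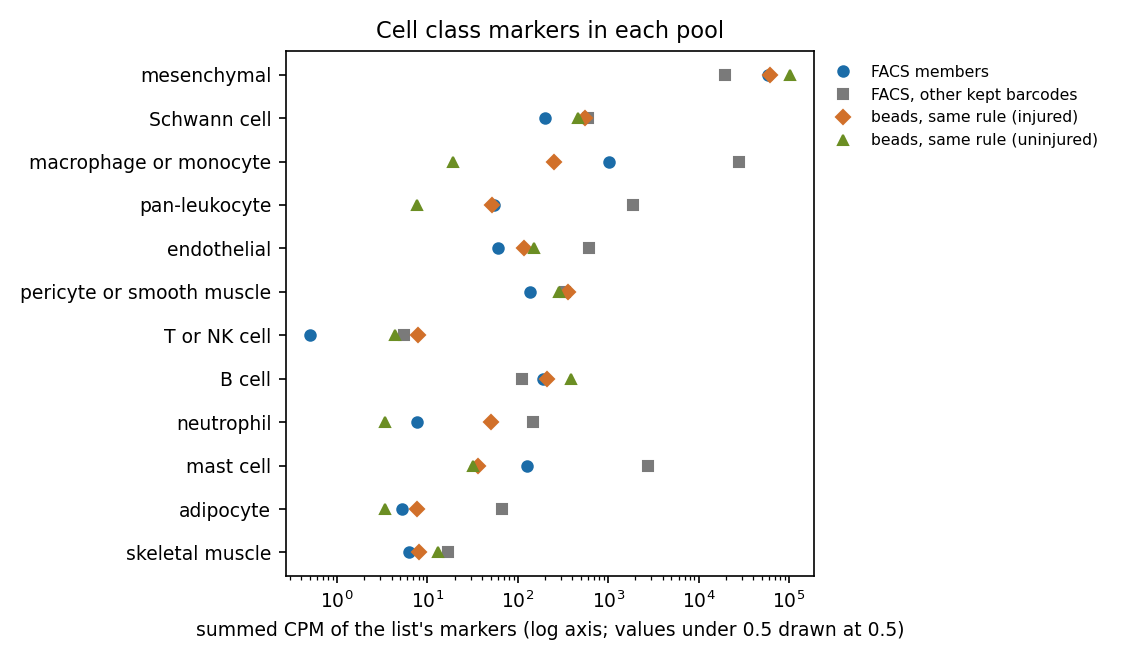
Summed level of each list of cell type markers, in CPM on a log axis, for the FACS members, the other kept barcodes of the FACS library, and the cells chosen by the same rule in the injured beads library and the uninjured table. Macrophage markers stood at 1014 CPM in the members and at 27858 CPM in the other barcodes, and mesenchymal markers at 58930 and 19831 CPM. The other barcodes include 130 with at least 2% matrix genes. The T and NK cell sum of 0 in the members is drawn at the left end of the axis.

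Against all other kept barcodes of the same library, the members were higher in matrix, Wnt antagonist and epineurial genes and lower in leukocyte genes. This contrast is the one that chose the cells, so its values describe the choice and support nothing else. The other barcodes include 130 with at least 2% matrix genes that exceeded the C1q or endothelial limit. These held 1278154 of the 4195430 UMIs of the other barcodes. A gene was called when it reached 50 CPM in either set, differed at least 2-fold and had an interval of the ratio that left out 1. Of 4127 genes that reached the floor, 455 were called higher (11%) and 481 lower (11.7%). At equal depth the counts were 756 and 708. Outside the matrix genes of the rule, the genes leading the higher side were Inmt, a methyltransferase (108 against 16.9 CPM), Dpep1, a membrane dipeptidase (122 against 24.3 CPM), Mmp3, the matrix metalloproteinase stromelysin (298 against 66.3 CPM), and Sema3c, a secreted semaphorin (181 against 41.7 CPM). A single cell held 24.7% of the members' Mmp3 UMIs and another 22.9% of their Inmt UMIs. Clec11a, Nov, Scara5, Tnxb, Pamr1, Srpx2, Pi16 and Htra3 completed the leading 12, with log2 ratios from 1.93 to 2.09. On the lower side C5ar1, a complement receptor of myeloid cells, stood at 1.03 against 103 CPM, and Cd74, the invariant chain of MHC class II, at 123 against 5399 CPM.

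By list, all 10 Wnt and BMP antagonists that passed a floor of 50 CPM were higher in the members than in the other barcodes, with a median log2 ratio of 1.52 against 0.05 over all genes tested. They included Wif1, Sfrp1, Sfrp2, Sfrp4, Dkk2, Dkk3 and Fstl1. The lists of mesenchymal subtypes were higher as well, with 9 of 10 epineurial genes (median log2 ratio 1.64), 7 of 8 genes of differentiating cells (median 1.25) and 5 of 7 endoneurial genes (median 1.07). Of 12 complement genes, 9 were higher, C3, C4b and Serping1 among them, and Cfd was lower. Of 11 MHC class I and interferon genes, 6 were lower and 0 higher, among them B2m, H2-K1 and H2-D1.

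The 6 genes by which the members were then described mark different kinds of nerve mesenchyme or injury response. Dlk1 (chr12:109452823-109463336, plus strand; GRCm38, as all positions here) encodes a membrane protein of the Delta family and is imprinted. Tnc (chr4:63959785-64047015, minus strand) encodes tenascin C, a matrix glycoprotein of wounds. Wif1 (chr10:121033960-121100650, plus strand) encodes a secreted Wnt inhibitor. Sox9 (chr11:112782224-112787760, plus strand) encodes a transcription factor that endoneurial fibroblasts share with cartilage. Pi16 (chr17:29317680-29330593, plus strand) marks fibroblasts of outer connective tissue sheaths. Itgb4 (chr11:115974709-116008412, plus strand) encodes the beta chain of a laminin receptor of perineurial cells, and Schwann cells also express it. All 6 are protein-coding genes.

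Dlk1 stood at 754 CPM in the FACS members (723 to 787), at 452 CPM in the matching cells of the injured beads library and at 27.1 CPM in those of the uninjured table. It was seen in 217 members (29.5%), and 1 cell held 226 of its UMIs, 10.3% of the sum. In cells of at least 1000 UMIs reduced at random to 1000 each, which puts all libraries at 1 depth, Dlk1 was seen in 18.4% of FACS members, 16.9% of injured beads cells and 2.04% of uninjured cells. Both injured libraries were thus above the uninjured one, and by share of cells they lay within each other's intervals (15.04% to 22.1% and 14.6% to 19.4%). Among the C1q-rich barcodes with few matrix genes, which should lack the gene, 3.27% had a Dlk1 UMI at the same depth. This background, here and for the genes below, is of the injured FACS library and holds for that library only.

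Tnc and Wif1 were both lower in the FACS members than in the injured beads cells and were near 0 without injury. Tnc stood at 350 CPM in FACS members (328 to 372), 1102 CPM in injured beads cells and 6.78 CPM in uninjured cells. At equal depth it was seen in 17.1%, 26.7% and 0.136% of cells, against a background of 3.48%. Wif1 stood at 290 CPM (271 to 310), 861 CPM and 7.26 CPM. At equal depth Wif1 was seen in 10.3%, 20.6% and 0.545% of cells, against a background of 0.818%. The FACS and injured beads intervals did not overlap for either gene. In the FACS members reduced to equal depth the level of Wif1 was 192 CPM.

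Sox9 and Itgb4 were highest in the uninjured cells. Sox9 stood at 109 CPM in FACS members (97.0 to 121), 145 CPM in injured beads cells and 240 CPM in uninjured cells. It was seen at equal depth in 10.95%, 9.65% and 17.4% of cells, while 0 of 489 background barcodes had a UMI. Itgb4 rested on 27 UMIs in 15 members, a level of 9.29 CPM (6.12 to 13.5), with 28.2 CPM in injured beads cells and 86.2 CPM in uninjured cells. The level of Itgb4 was 14.5 CPM in members reduced to equal depth and 3.62 CPM in members with at least 4% matrix genes. Other kept barcodes of the FACS library had 10.2 CPM, so this gene did not set the members apart from the rest of their library.

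Pi16 ran against Tnc and Wif1 between the injured libraries. It stood at 621 CPM in FACS members (593 to 650), 341 CPM in injured beads cells and 864 CPM in uninjured cells, and was seen at equal depth in 26.9%, 21.3% and 21.4% of cells. The background share was 4.91%. The share of cells was close in the injured beads and uninjured libraries while the levels differed, since a positive uninjured cell had a median of 3.5 Pi16 UMIs and a positive injured beads cell had 2.

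**Figure D2:**
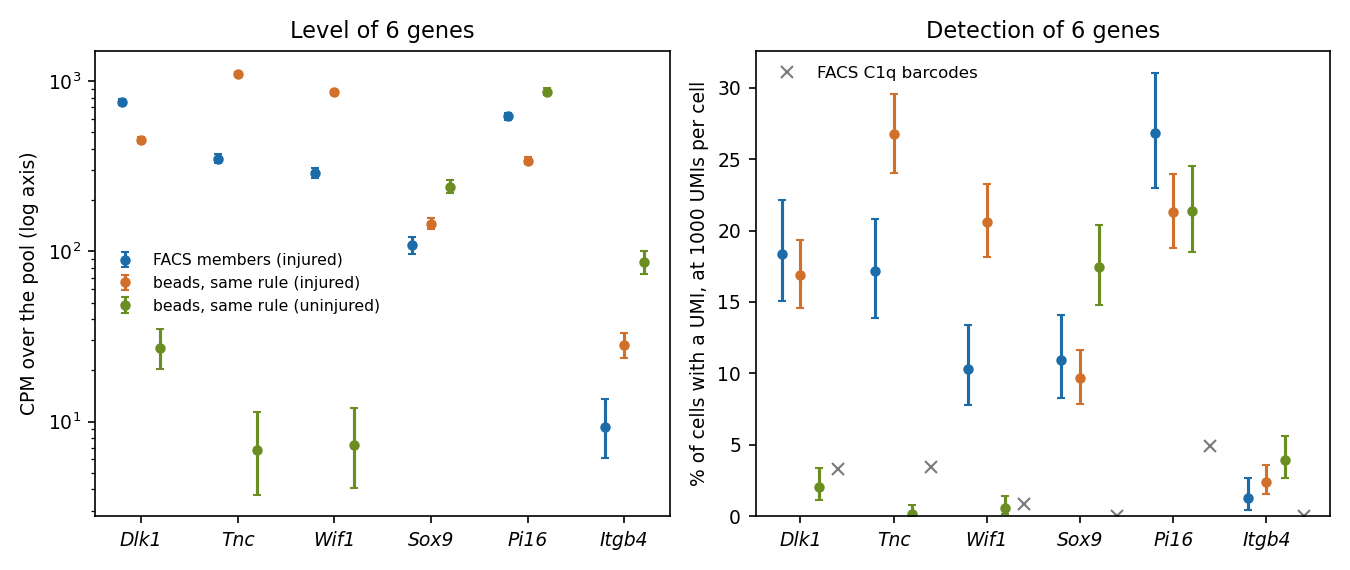
Level in CPM on a log axis (left) and percent of cells with a UMI at 1000 UMIs per cell (right) for Dlk1, Tnc, Wif1, Sox9, Pi16 and Itgb4 in the FACS members, the injured beads cells and the uninjured cells, with exact 95% counting intervals; crosses are C1q-rich FACS barcodes. Dlk1, Tnc and Wif1 are at 27.1, 6.78 and 7.26 CPM in the uninjured cells, below both injured libraries.

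Most members carried few of the 6 genes. None of the 6 was seen in 179 members (24.4%), whose median depth was 509 UMIs, exactly 1 in 255, 2 in 169, 3 in 95, 4 in 34, 5 in 3 and all 6 in 0. Among members of at least 1000 UMIs, 49 (10.1%) had none. Cells in which a gene was seen were deeper than the others, with median depths of 5657 against 2060 UMIs for Dlk1 and 5144 against 989.5 for Pi16, so joint counts were read at equal depth.

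At 1000 UMIs per cell, Wif1 and Sox9 were seen together in 12 of 484 cells, 2.19 times (1.14 to 3.79) the number that the product of the single shares gives. The intervals of these ratios are those of the joint count, with the product taken as fixed. They leave out the counting error of the single shares. Dlk1 with Wif1 (3 cells, 0.33 times, 0.067 to 0.95), Tnc with Pi16 (8 cells, 0.36 times, 0.16 to 0.70) and Wif1 with Pi16 (6 cells, 0.45 times, 0.16 to 0.97) were below the product. Dlk1 with Tnc (0.98 times) and Dlk1 with Pi16 (1.09 times) were close to it. Without the reduction in depth, only 4 of 15 pairs were below the product, against 12 at equal depth, but Wif1 with Sox9 stood out in both readings (68 cells, 2.56 times). In the injured beads cells at equal depth, Wif1 with Sox9 was at 1.97 times (1.41 to 2.68), Dlk1 with Wif1 at 0.12 times and Tnc with Wif1 at 0.15 times. Dlk1 with Tnc was at 1.43 times there (1.11 to 1.80).

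**Figure D3:**
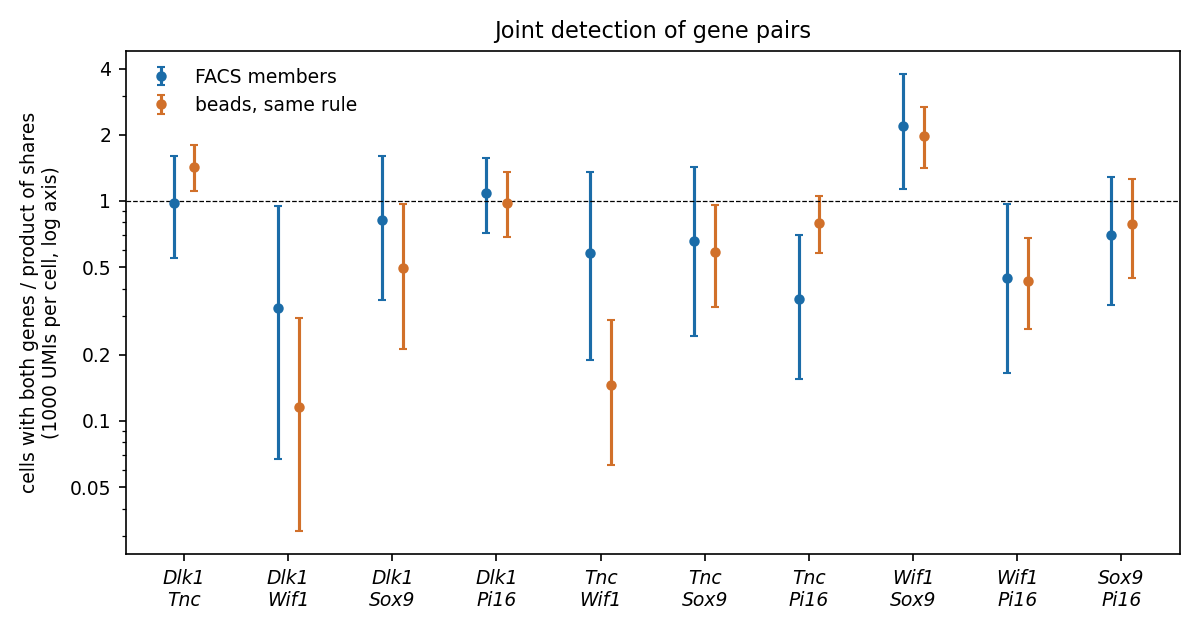
Cells with a UMI of both genes divided by the number that the product of the single shares gives, at 1000 UMIs per cell, for the 10 pairs without Itgb4 in the FACS members and the injured beads cells, on a log axis. Bars are 95% intervals of the joint count, with the product taken as fixed. Wif1 with Sox9 lies above 1 in both libraries (2.19 and 1.97) and Dlk1 with Wif1 below 1 (0.33 and 0.12).

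Splitting the members by a UMI of each gene gave the genes that went with it. These splits were made on the same cells and describe them. The gene lists were chosen with earlier results of these data known, so counts by list in the splits are descriptions too. Here a gene needed 100 CPM in either set, and the cells with the gene were always the deeper ones. Levels in a split or comparison leave out the splitting gene or genes without a row in both tables, so they can differ in the last digit from those above.

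Members with a Wif1 UMI differed from the rest in more genes than those with Dlk1, Tnc, Sox9 or Pi16. Of 1972 genes tested, 104 were higher (5.27%) and 118 lower (5.98%) in the 127 cells with Wif1 than in the 608 without. The leading genes were Trf, which encodes the iron carrier transferrin (1792 against 45.6 CPM, log2 ratio 5.29), Cspg5, a chondroitin sulfate proteoglycan (102 against 2.85 CPM), Saa1, an acute phase protein (146 against 4.28 CPM), and Ccl9, a chemokine (922 against 37.6 CPM). Nipal1, Kng1, Col26a1 and Apod followed. Saa1 had 28.2% of its UMIs in 1 cell and was not called at equal depth (log2 ratio 1.80), where 186 genes were higher and 144 lower in all. Saa1 and Kng1 have near-identical neighbours in the mouse genome, Saa2 and Kng2, and reads could have been split between copies. The endoneurial genes were higher together, at 6 of 6 with a median log2 ratio of 2.54 against -0.12 over all genes tested. They included Cdkn2a, a cell cycle inhibitor locus (252 against 29.0 CPM), and Osr2, a transcription factor (198 against 48.0 CPM).

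Chemokines went with Wif1 as well. Of 8 past the floor, 5 were higher and 0 lower: Ccl2 (1593 against 200 CPM), Ccl11, Ccl7, Cxcl1 and Cxcl2. These are ligands that draw monocytes, eosinophils and neutrophils. Epineurial genes were lower at 8 of 9 (median log2 ratio -2.27), for example Clec3b (168 against 1129 CPM). Of 7 genes of differentiating cells 5 were lower, with Dlk1 at 111 against 1000.2 CPM and Mest, an imprinted gene of growing mesenchyme, at 411 against 2099 CPM. All 8 leading genes were also at least 2-fold higher in the injured beads cells with Wif1, where 7.20% of genes were. Only 9 uninjured cells had Wif1.

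The Wif1-bearing cells are the point at which promoter sequences help to compare genes that moved together. Of Wif1 and its 8 leading companions, Wif1, Apod, Saa1, Ccl9 and Nipal1 are in the RefSeq promoter table (GRCm38.p6). The 4 windows below run 5′ to 3′ on each gene's own strand from 250 to 45 bases before the RefSeq start. Capitals mark any match, on either strand, to the SOX core (ACAATG), the TATA box (TATAAA), the C/EBP dyad (TTGCGCAA) or the AP-1 site (TGA, then any base, then TCA).
Wif1, chr10:121033754-121033959, plus strand: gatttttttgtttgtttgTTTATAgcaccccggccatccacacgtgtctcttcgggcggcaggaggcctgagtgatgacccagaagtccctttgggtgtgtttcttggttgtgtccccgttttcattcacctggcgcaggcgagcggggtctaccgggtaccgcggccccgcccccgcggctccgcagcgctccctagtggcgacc
Apod, chr16:31314853-31315058, minus strand: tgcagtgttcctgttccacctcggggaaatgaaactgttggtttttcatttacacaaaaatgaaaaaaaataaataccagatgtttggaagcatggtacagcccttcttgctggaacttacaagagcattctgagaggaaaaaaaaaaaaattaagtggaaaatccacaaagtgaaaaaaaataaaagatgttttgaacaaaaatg
Saa1, chr7:46743025-46743230, minus strand: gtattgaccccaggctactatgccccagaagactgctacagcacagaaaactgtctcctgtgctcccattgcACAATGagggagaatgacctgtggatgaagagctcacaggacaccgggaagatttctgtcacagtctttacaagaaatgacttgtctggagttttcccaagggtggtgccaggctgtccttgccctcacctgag
Ccl9, chr11:83578681-83578886, minus strand: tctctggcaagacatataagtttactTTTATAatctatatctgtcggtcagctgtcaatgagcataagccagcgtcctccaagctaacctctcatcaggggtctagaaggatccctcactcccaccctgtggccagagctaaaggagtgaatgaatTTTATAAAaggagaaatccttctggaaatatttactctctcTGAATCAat

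No motif was found in all 5 windows. Wif1 had a TATA box match on the reverse strand 232 bases before the start, and Saa1 a SOX core match at 178 bases. Ccl9 had TATA box matches at 224, 94 and 92 bases, the last pair overlapping on opposite strands, and an AP-1 match at 53 bases. Apod and Nipal1 had no match in this window. The windows stop 45 bases before the start, so a TATA box or other match nearer to it could not be found. Over 32851 RefSeq windows of the same 206 bases, 9.22% held the SOX core, 9.38% the TATA box, 0.134% the C/EBP dyad and 5.74% the AP-1 site, each searched on both strands. The windows differed in base composition, with G and C at 61.65% for Wif1 and 33.01% for Apod.

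Apod, which encodes the lipid carrier apolipoprotein D, was concentrated in these cells. Its median share of a member's UMIs was 0.25%, with quartiles of 0.127% and 1.06% and a highest value of 27.8%. The 114 members with at least 5% Apod held 88.0% of all Apod UMIs of the members. Of these 114, 81 had a Wif1 UMI (71.1%), which is 63.8% of the Wif1-bearing cells. The median share was 8.43% in cells with Wif1 and 0.210% in cells without it. The 86 cells with Sox9 and without Wif1 had a median of 0.191%, so high Apod went with Wif1 and not with Sox9 alone.

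**Figure D4:**
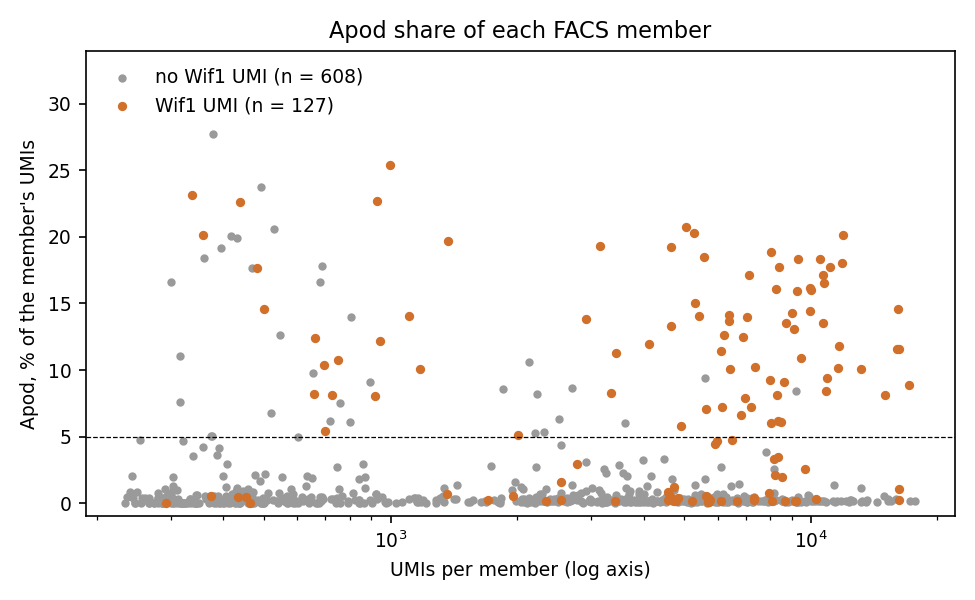
Share of each member's UMIs that came from Apod (percent) against the member's depth in UMIs on a log axis, with 1 point per cell; cells with a Wif1 UMI (127) are orange, the other 608 grey, and the dashed line marks 5%. Of the 114 cells at or above the line 81 have a Wif1 UMI, and the grey cells above it lie mostly at low depth.

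Sox9-bearing cells resembled those with Wif1 in part. Of 1911 genes tested, 44 were higher (2.3%) and 45 lower (2.35%) in the 154 cells with Sox9. The leading 8 genes included Saa1 (114 against 6.30 CPM), Epyc, a small leucine-rich proteoglycan of cartilage (406 against 57.7 CPM), Saa3, Nipal1, Wif1 (598 against 128 CPM), Matn4 and Col26a1. Endoneurial genes were higher at 4 of 5 and epineurial genes lower at 7 of 9. At equal depth only Epyc (log2 ratio 1.41) and Saa3 (3.14) of the 8 were still called, while 129 genes were higher in all. Saa3 was seen in 11 of the cells with Sox9, and 1 of them held 52.9% of its UMIs. In the injured beads cells 6 of the 8 leading genes were at least 2-fold higher with Sox9, where 2.81% of genes were, and Saa3 was not (log2 ratio -0.08). In the FACS members at equal depth, the log2 ratio was 0.97 for Wif1 and -1.83 for Matn4. At full depth in the injured beads cells, these ratios were 1.88 and 1.60.

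Of 1879 genes tested, 15 were higher (0.798%) and 7 lower (0.373%) in cells with Dlk1. At equal depth the counts were 117 higher and 79 lower, with 11 and 4 of the genes called at full depth among them. Cdkn1c, an imprinted inhibitor of cyclin-dependent kinases, was at 573 against 167 CPM, Ptn, the growth factor pleiotrophin, at 1297 against 394 CPM, and Plagl1, an imprinted zinc finger factor, at 342 against 111 CPM. Hp, C1qtnf3, Hs6st2 and Sfrp2 had smaller ratios, and Hp was not called at equal depth (log2 ratio 1.07). Terf2ip rested on 1 cell, which held 81.4% of its UMIs. In the injured beads cells, Cdkn1c, Ptn, Plagl1 and Sfrp2 were at least 2-fold higher with Dlk1 too, where 1.59% of genes were. Mest and Ptn were the genes of differentiating cells called higher, and Wif1 was lower (181 against 374 CPM).

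Of 1941 genes tested, 16 were higher (0.824%) and 43 lower (2.22%) in cells with Tnc. At equal depth the counts were 137 higher and 107 lower, with 12 and 34 of the genes called at full depth among them. Cilp, a cartilage matrix protein, was at 979 against 302 CPM, Mest at 2594 against 946 CPM and Spp1, the secreted phosphoprotein osteopontin, at 3218 against 1177 CPM. In the injured beads cells 4 of the 8 leading genes, Cilp and Mest among them, were at least 2-fold higher with Tnc, where 2.24% of genes were. Spp1 was not, at 1201 against 962 CPM (log2 ratio 0.32). Terf2ip again rested on 1 cell, with 78.9% of its UMIs. Epineurial genes were lower at 6 of 9 (median log2 ratio -1.24), for example Pi16 (345 against 819 CPM) and Clec3b (394 against 1200.3 CPM). Of 10 complement genes, C3, C4b and Cd55 were lower and 0 were higher.

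Pi16-bearing cells carried the epineurial genes. Of 1889 genes tested, 14 were higher (0.741%) and 4 lower (0.212%). At equal depth the counts were 135 and 69, with 13 and 1 of the genes called at full depth among them. Pla1a, a phospholipase, was at 104 against 7.64 CPM, Cd55, a brake on complement, at 119 against 24.6 CPM, Sema3c at 265 against 59.4 CPM and Ly6c1, a surface protein, at 822 against 308 CPM. Of 8 epineurial genes tested besides Pi16, 5 were higher and 0 lower (median log2 ratio 1.25). All 8 leading genes were at least 2-fold higher in uninjured cells with Pi16 as well, where 8.04% of genes were, and 3 of them in injured beads cells, where 0.154% were.

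Itgb4-bearing cells were 15, with 81325 UMIs in all. Of 2161 genes tested, 220 were higher (10.2%) and 116 lower (5.37%). At equal depth 251 were higher and 20 lower, with 41 and 4 of the genes called at full depth among them. Perineurial genes were higher at 5 of 6: Slc2a1, the glucose transporter of the perineurial barrier (258 against 19.8 CPM), Krt19, a keratin (295 against 2.83 CPM), Mpzl2, Itga6 and Tenm2. Sfrp5, a secreted Wnt antagonist, stood at 1144 against 21.9 CPM. Several of these rest on few molecules, such as 24 UMIs of Krt19. Of the 8 leading genes, 3 were still called at equal depth. Only 6 members had an Itgb4 UMI at that depth, so the equal-depth calls rest on few molecules. At full depth, 10 of the 15 cells had a single Itgb4 UMI. In injured beads cells 7 of them were at least 2-fold higher with Itgb4, where 5.86% of genes were, and in uninjured cells 6, where 18.3% were.

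Between the injured libraries, the FACS members were compared with the 1442 beads cells chosen by the same rule. Strain, isolation and library differ together and cannot be told apart. Of 3957 genes tested, 111 were higher (2.81%) and 80 lower (2.02%) in the FACS members. At equal depth 135 were higher and 173 lower, with 85 and 65 of the genes called at full depth among them. Among the 12 genes leading the higher side were Ubb, which encodes ubiquitin (1412 against 331 CPM), Bloc1s1, Grcc10, Ndufs5, Tma7 and Apoe, a lipid carrier abundant in macrophages (3287 against 939 CPM). Gng5, Gpx4, Gstp1, Tmsb10 and Btf3 were also among them. Ubb, Gpx4, Gstp1, Tmsb10 and Btf3 have near-identical copies or pseudogenes among which reads could have been split. The same comparison was made over the C1q-rich barcodes with few matrix genes of both libraries, and 11 of the 12 leading genes were at least 2-fold higher in the FACS library there too. Apoe was not, at a log2 ratio of -0.18. Bloc1s1 rested on 5 UMIs and Ndufs5 on 9 in the beads barcodes there. The share of all genes that differed 2-fold in these barcodes was not computed, so counts over them describe the named genes only.

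The lower side was led by secreted proteins. Cxcl5, a neutrophil chemokine, was at 34.4 against 188 CPM, Saa3 at 49.5 against 238 CPM with 38.2% of its FACS UMIs in 1 cell, Hbegf, an epidermal growth factor receptor ligand, at 23.7 against 104 CPM, and Sfrp5 at 53.3 against 203 CPM. Nes, Chl1, Tnc, Dio2, Wif1, Xist, Col11a1 and Epyc followed. In the C1q-rich barcodes only Xist was at least 2-fold lower with an interval that left out 1. Dio2 was at 1.59 against 4.10 CPM there (log2 ratio -1.37), with an interval that held 1, and 8 of the 12 genes had fewer than 10 UMIs there in 1 of the libraries. Against the cells of the authors' own mesenchymal table, Hbegf was no longer called (log2 ratio -0.82).

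By list, few genes were called between the injured libraries. Of 12 mesenchymal genes and 18 collagen processing enzymes 0 were called, and of 17 collagens only Col11a1 was (lower). The mesenchymal and collagen lists hold the genes of the rule, which the cells of both libraries had to carry. Of 10 epineurial genes, Clec3b (864 against 374 CPM) and Ly6c1 (613 against 256 CPM) were higher, with a median log2 ratio of 0.67 against -0.02 over all genes. Of 6 cell division genes past the floor, Mki67 (21.3 against 62.3 CPM), Top2a and Prc1 were lower. Of the contractile genes Acta2 (31.0 against 105 CPM) and Tagln (11.0 against 94.6 CPM) were lower, and so was the pericyte gene Rgs5 (7.57 against 135 CPM), beside pericyte sums of 137 and 362 CPM. Ccl2 was lower too (585 against 1332 CPM). Of the macrophage markers, C1qb, Lyz2, Ctss and Tyrobp were higher in the FACS members, and their part in the other differences was not tested.

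Sex-linked transcripts showed that both libraries held cells of both sexes in different proportions. Of the FACS members, 171 had only Xist UMIs, 168 only UMIs of 4 Y-linked genes, 16 both and 380 neither. The beads cells were 691, 182, 30 and 539. Within the FACS members, Tnc stood at 274 CPM in the Xist-only cells and 509 CPM in the Y-only cells (log2 ratio -0.90, -1.12 to -0.68), and Pi16 at 849 and 542 CPM. Dlk1 (735 and 830 CPM) and Wif1 (254 and 230 CPM) were close. The number of animals behind either set is not given, so a sex and an animal cannot be told apart.

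Against the 837 uninjured cells, the FACS members had far more of the genes of differentiating mesenchyme and far less of the resting endoneurial and sterol genes. Injury, sort, strain, library and the authors' choice of cells differ together here, and the FACS members are the same as in the comparison above. Of 3900 genes tested, 382 were higher (9.79%) and 310 lower (7.95%). The median log2 ratio of all genes tested was 0.21, and with trimmed-mean scaling (TMM) or DESeq2 size factors the split became 299 higher and 364 lower, or 305 and 358. Changes below are on the CPM scale.

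All 8 genes of differentiating cells were higher than in uninjured cells, with a median log2 ratio of 3.63. The gene lists were chosen with earlier results of these data known, so list counts here are descriptions. Tnc stood at 350 against 6.80 CPM (log2 ratio 5.68, 4.93 to 6.56), Dlk1 at 754 against 27.2 CPM (4.79), Ptn at 785 against 41.3 CPM (4.25) and Cthrc1, a secreted protein of matrix remodelling, at 922 against 68.5 CPM (3.75). Postn (periostin), Mest, Mdk and Adam12 were the others. Further leading genes were Wif1 (290 against 7.29 CPM), Fbn2, a fibrillin of growing tissue (248 against 11.2 CPM), H19, an imprinted non-coding RNA (3294 against 180 CPM), Spp1 (2027 against 120 CPM), and Ctsc, Emb, Marcksl1 and Aldh1a3. Ctsc and Spp1 are also macrophage genes, and macrophage marker sums were 1014 against 19.4 CPM.

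Growth factors for axons and Schwann cells were higher in all 4 cases past the floor: Ptn, Mdk (754 against 70.0 CPM), Igf1 (2280 against 721 CPM) and Igf2 (353 against 33.5 CPM). Ligands of other growth factor families split evenly, with 4 higher and 4 lower of 14, and with Rspo3, a Wnt amplifier, at 55.0 against 2.43 CPM and Bmp4 at 5.85 against 74.8 CPM. Of 11 chemokines and cytokines, Ccl2 (585 against 114 CPM), Ccl8, Cxcl2 and Il6 were higher and Ccl11 and Cxcl13 lower. Ccl8 and Cxcl2 were lower in the members than in the other kept barcodes of the FACS library. Macrophage marker sums were 1014 CPM in the members and 19.4 CPM in the uninjured cells, and their part here was not tested. Timp1, an inhibitor of metalloproteinases, was at 557 against 49.1 CPM and Mmp14, a membrane metalloproteinase, at 1720 against 398 CPM.

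Of 17 fibrillar and network collagens, Col14a1 and Col18a1 were higher and Col15a1 lower, with a median log2 ratio of -0.01. Col1a1, Col1a2 and Col3a1 are in this list and were part of the rule in both sets, so its values are a description. Among 20 matrix glycoproteins and proteoglycans 7 were higher and 3 lower, and Dcn, which was part of the rule in both sets, stood at 11776 against 43733 CPM. Pdgfra was lower as well, at 220 against 530.2 CPM.

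The lower side was led by Hlf, a circadian output transcription factor (2.75 against 114 CPM), the sterol enzyme Sqle (3.10 against 100.1 CPM), Enpp2, which encodes autotaxin (29.2 against 769 CPM), Myoc, or myocilin (22.4 against 577 CPM), and Crispld2 (71.2 against 1527 CPM). Abca6, Comp, Sc4mol (an older symbol of Msmo1), Cyp51, Insig1, Vit and Cpxm2 followed. All 10 genes of the sterol list past the floor were lower (median log2 ratio -3.89), among them Hmgcs1 (29.9 against 263 CPM) and Fdft1 (4.47 against 69.5 CPM). Of 7 resting endoneurial secreted genes, 6 were lower (median -3.68), for example Angptl7 (226 against 2287 CPM), and Apod was the one not called. Of the 8 endoneurial genes, Wif1 was higher and Sox9, Osr2, Etv1, Abca9 and Plxdc1 lower. Perineurial genes were 1 higher (Cldn1) and 4 lower of 7, and epineurial genes 0 higher and 2 lower of 10 (Dpp4 and Pcolce2).

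Immediate early genes, which respond to tissue dissociation, were lower at 11 of 19 and higher at 1, Ier3 (583 against 160 CPM). Fos stood at 2817 against 6493 CPM and Socs3 at 204 against 612 CPM. The haemoglobin gene compared, Hba-a1, stood at 1.03 against 571 CPM. These values move with the library as well as with injury, and their part in the other differences was not tested.

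**Figure D5:**
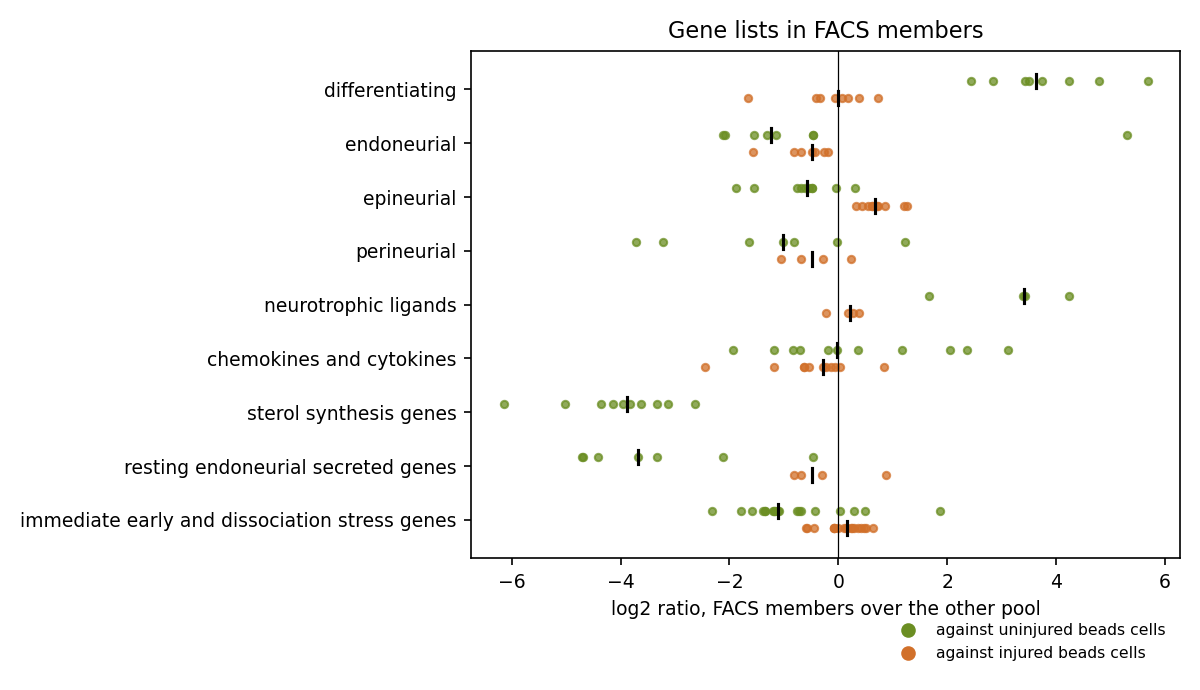
Log2 ratio of the level in FACS members over the uninjured beads cells (green) and over the injured beads cells (orange) for the genes past the floor in 9 lists, with 1 point per gene and the list median as a bar. All 8 genes of differentiating cells lie above 0 against the uninjured cells (median 3.63) and all 10 sterol genes below it (median -3.89), while the largest list median against the injured beads cells is 0.67, for epineurial genes. The 2 comparisons share the FACS members, and the lists were chosen with earlier results of these data known.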

How the data were processed

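Cells of 3 Drop-seq libraries of adult mouse sciatic nerve were analysed from UMI counts as the authors deposited them, in whole numbers per gene and cell without normalization. Per the submitters' processing notes, reads were placed on mm10; the sources used here name no aligner and no counting tool. Of the genes in the injured beads table, 2614 without a row in the FACS table used here were not analysed. Genes of the uninjured table without such a row were not analysed either, and genes missing from the uninjured table were counted as 0. The members and gene lists were chosen with earlier results of these data known.

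Counts were summed over each set of cells and scaled to CPM, with exact Poisson (levels), Clopper-Pearson (shares) and conditional binomial (ratios) intervals at 95%. With 1 library per group there is no test between groups. Genes were called at 50 CPM or more (100 CPM in splits by a single gene), a ratio of 2 or more and an interval excluding 1, and a set at 0 was given 3 counts. The genes named are the 12 highest and 12 lowest ratios per comparison, and the 8 highest per split, among genes with 100 CPM in the higher set, leaving out mitochondrial, ribosomal, haemoglobin and unnamed genes and markers of other cell types; a few genes and results that this rule gives are not reported here. For equal depth, cells of at least 1000 UMIs were reduced to 1000. The calling was tested on simulated data. No doublet caller was run: 16 members had both Xist and Y-linked UMIs, and 130 barcodes with at least 2% matrix genes exceeded the C1q or endothelial limit, with a median of 9457 UMIs.

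Python 3.11.15 with numpy 2.4.6, scipy 1.17.1 and matplotlib 3.10.9 was used, and edgeR 4.0.16 and DESeq2 1.42.0 in R 4.3.3 gave scaling factors for the alternatives only. Positions are from GENCODE on GRCm38 and promoter sequences from RefSeq on GRCm38.p6.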

Additional observations from a re-analysis of the deposited data

How the results depend on the processing

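The choice of cells depended on the limits: 407 members were left with at least 4% matrix genes and 405 with C1q and endothelial UMIs at 0, against 735. Levels in members reduced to 1000 UMIs each were 721 CPM for Dlk1, 374 for Tnc, 192 for Wif1, 124 for Sox9, 820 for Pi16 and 14.5 for Itgb4. With at least 4% matrix genes they were 938 CPM for Dlk1, 92.9 for Sox9, 683 for Pi16 and 3.62 for Itgb4. Of 15 gene pairs, 4 were below the product of shares unreduced, 12 at equal depth and 10 at equal depth with another random draw. That second draw and the removal of cells with both Xist and Y-linked UMIs were chosen after seeing the data.

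Without a floor on CPM, the called genes were 1318 higher and 1783 lower against the other barcodes, 496 and 768 against the injured beads cells, and 1384 and 1119 against the uninjured cells. The same setting gave 239 and 274 for the Dlk1 split, 389 and 389 for Tnc, 529 and 787 for Wif1, 351 and 405 for Sox9, 258 and 265 for Pi16, and 562 higher for Itgb4. At equal depth 756 genes were higher than in the other barcodes and 173 lower than in the injured beads cells. The splits then gave 117 and 79 for Dlk1 (11 and 4 of them shared with the calls at full depth), 137 and 107 for Tnc, 186 higher for Wif1, 129 higher for Sox9, 135 and 69 for Pi16, and 20 lower for Itgb4. Fewer UMIs enter those splits, and the cause was not tested further. Matn4 in the Sox9 split reversed to -1.83 at equal depth, and Saa1 in the Wif1 split was no longer called (1.80).

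All 24 named genes of the comparison with the other barcodes kept their call under each alternative run, and so did the 24 of the comparison with uninjured cells. Of the 24 against the injured beads cells, Hbegf lost its call with the authors' own table (-0.82). No paired analysis was possible because each group is 1 library.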
